A study of Mus musculus with 6 samples.

Results

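The globin and erythroid genes described here are Hba-a1, Hba-x, Hbb-y, Hbb-bh1, Alas2, Slc4a1, Ahsp and Rhag, read in mouse bladder at embryonic day 18.5. They were chosen by name. Each gene is read by the brightest probe set, by the mean of the 6 arrays, among those annotated to its symbol alone. Of the 8 genes 7 had such a probe set, among 18193 genes with one, and Ahsp was not analysed here. RNA had been measured on 3 arrays of Get1 -/- bladders (called null 1 to null 3) and 3 arrays of Get1 +/- bladders (het 4 to het 6). Get1 is another name of Grhl3, a transcription factor of surface epithelia. The heterozygous arrays are the controls and carry 1 mutant allele themselves. The design text speaks of 3 mice of each genotype, and neither it nor the labels give the strain, the sex, the litters or how the Get1 allele was made. In the sample titles null 1 stands alone with a first number of 1, where the other 5 have 2, and what the number means is not stated.

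The bladder defects of Get1 -/- embryos were the reason given for profiling the tissue. Markers of the labelled tissue were present: 12 of 12 urothelial and 8 of 8 smooth muscle genes lay on every array above the level used to leave out dim genes (a signal of 39.7). Median signals of the 6 arrays lay between 58.2 and 72.4. Levels are given as signal on the deposited linear scale or as log2(signal + 16), on which the lowest possible level is 4. Differences are null minus heterozygous on that log2 scale, and fold changes on it understate the change of dim genes.

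Red blood cells carry haemoglobin, a tetramer of alpha-like and beta-like globin chains, each of which holds a haem group. Mice make embryonic chains first, the zeta chain of Hba-x and the epsilon-y and beta-h1 chains of Hbb-y and Hbb-bh1, in cells of the yolk sac. They then switch to the adult chains of Hba-a1 and Hba-a2 and of the adult beta genes when red cells come from the fetal liver. Alas2 begins haem synthesis in these cells, Slc4a1 (band 3) exchanges anions across their membrane, Rhag is part of the Rh complex, and the product of Ahsp binds free alpha chains. The bladder is no known site of red cell formation, but its vessels hold blood. In RNA of a whole organ, fewer cells of a type and less RNA per cell cannot be told apart.

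The stretches before the start sites of the globin genes are shown first, because they show how alike the adult copies are and how the embryonic genes differ from them. RefSeq's table of assembly GRCm38.p6 held a promoter for 5 of the 8 genes (Hba-a1, Hba-x, Hbb-y, Alas2 and Rhag), and the adult genes Hba-a2, Hbb-bs and Hbb-bt were added. Each line gives the 150 bases that end just before the annotated start, in the direction of the gene, with capitals on 4 short motifs or their reverse complements: GATAA of the GATA factors, CACCC of factors such as Klf1, the box CCAAT found near many starts, and TATAA of the TATA box. Hba-a1 lies at chr11:32283522-32283671 on the plus strand, Hba-a2 at chr11:32296342-32296491 (plus), Hba-x at chr11:32276450-32276599 (plus), Hbb-bs at chr7:103827929-103828078 (minus), Hbb-bt at chr7:103813924-103814073 (minus), Hbb-y at chr7:103853208-103853357 (minus) and Alas2 at chrX:150547267-150547416 (plus).
Hba-a1: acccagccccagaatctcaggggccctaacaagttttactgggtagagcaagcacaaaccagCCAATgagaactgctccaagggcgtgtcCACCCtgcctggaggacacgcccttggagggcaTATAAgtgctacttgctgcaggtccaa
Hba-a2: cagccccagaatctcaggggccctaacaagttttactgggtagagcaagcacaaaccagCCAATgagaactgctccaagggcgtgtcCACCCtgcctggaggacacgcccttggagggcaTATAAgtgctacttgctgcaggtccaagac
Hba-x: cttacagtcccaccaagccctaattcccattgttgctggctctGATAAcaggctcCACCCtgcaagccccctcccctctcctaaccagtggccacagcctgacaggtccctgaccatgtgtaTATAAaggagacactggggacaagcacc
Hbb-bs: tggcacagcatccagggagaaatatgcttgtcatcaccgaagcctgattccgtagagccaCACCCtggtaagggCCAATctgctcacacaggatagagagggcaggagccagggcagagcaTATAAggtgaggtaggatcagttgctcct
Hbb-bt: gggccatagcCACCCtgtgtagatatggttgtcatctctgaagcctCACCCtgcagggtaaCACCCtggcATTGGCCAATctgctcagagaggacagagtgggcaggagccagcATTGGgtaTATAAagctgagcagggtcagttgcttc
Hbb-y: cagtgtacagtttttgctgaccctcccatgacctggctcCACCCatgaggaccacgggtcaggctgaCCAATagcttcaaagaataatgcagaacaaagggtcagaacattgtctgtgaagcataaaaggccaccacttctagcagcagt
Alas2: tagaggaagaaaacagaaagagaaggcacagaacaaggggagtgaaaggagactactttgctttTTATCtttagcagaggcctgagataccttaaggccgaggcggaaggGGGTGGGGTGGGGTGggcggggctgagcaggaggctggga

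Hba-a1 and Hba-a2 are near-identical copies: an unbroken run of 247 bases was the same in the 250 bases before their starts. The longest shared run was 14 bases between Hbb-bs and Hbb-bt, 10 between Hba-a1 and Hba-x, and 8 between Hbb-bs and Hbb-y. GATAA and the Klf1-type CACCC were each found on either strand of the 250 bases before the start in 8 of 8 of these promoters. Of all 32851 promoters listed by RefSeq there, 22.6% held GATAA and 52.0% held the CACCC letters. CCAAT was found in 6 of 8 (33.8% of all promoters), and so was TATAA (22.8%), which began 27 to 30 bases before the start in the 5 globin promoters that held it there. In Alas2 the TATAA match overlaps its own reverse complement, outside the stretch shown. These matches describe the letters only.

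None of the 3 listed genes that could be tested passed the test between the genotypes. Of the 7 genes 3 passed the filter on dim genes (Hbb-y, Alas2 and Slc4a1), and 0 of these 3 were called by limma at an adjusted p under 0.05, where 0.510% of all 12735 genes tested were called (0.448% higher and 0.0628% lower in null). None of the 3 reached an unadjusted p under 0.05 either. Their differences were −0.26, −0.04 and −0.02, with a median of −0.04 beside −0.03 for all genes tested. The other 4, Hba-a1, Hba-x, Hbb-bh1 and Rhag, were below the filter and are described only. The median over all 7 was −0.26, and it was 0.08 without het 4. For 0 of the 3 tested genes were the groups apart, beside 13.4% of all genes tested (6.07% higher and 7.36% lower in null).

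**Figure D1:**
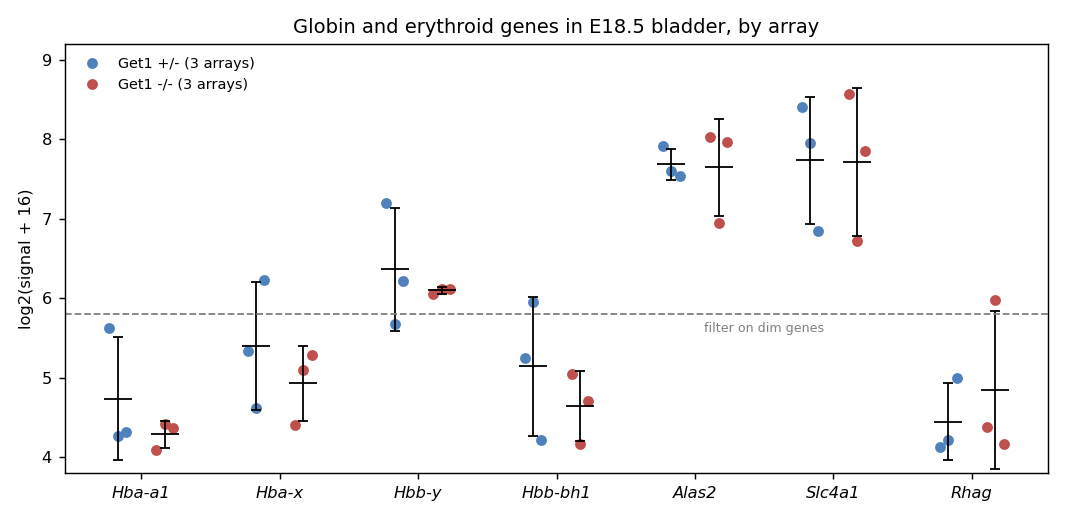
Levels of the 7 genes with a probe set on the 6 arrays, as log2(signal + 16). Points are arrays, blue for Get1 +/- and red for Get1 -/-, black lines are the group mean and SD over 3 arrays, and the dashed line is the filter on dim genes at 5.80. Only Alas2 and Slc4a1 lie above it on all 6 arrays, and the groups overlap for each gene.

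Adult alpha globin was bright on every array, through probe sets that do not tell its copies apart. The 1 probe set named for Hba-a1 alone was near the bottom of the scale, with signals of 1.01, 5.32 and 4.49 in the 3 null samples and 33.6, 3.36 and 3.77 in the 3 heterozygous ones, and 0 of 6 arrays reached the filter level. Its log2 difference of −0.45 was that of het 4, without which it was −0.00. A further 3 probe sets are annotated to Hba-a1 and Hba-a2 together. The brightest of them read 13105, 5958 and 10719 on null 1 to null 3 and 15510, 9568 and 6288.5 on het 4 to het 6. Each genotype thus held a high and a low array, and the groups overlapped. The difference was −0.05 (SE 0.43, 95% interval −1.04 to 0.93, adjusted p = 0.994 over all probe sets tested, limma). The second read from 4599 to 9901 in null and from 5749 to 9675 in heterozygous bladders, and the third from 695 to 1821 and from 933 to 1875. Their differences were 0.03 and −0.09. The probe set of Hba-a2 alone had signals of 832, 666 and 705 in null and 983, 959.8 and 289 in heterozygous bladders, with het 6 the lowest by a wide margin (difference 0.16, adjusted p = 0.970 over all genes, limma). Without het 6 this difference was −0.40.

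Adult beta globin was bright on every array as well, and its groups overlapped. The probe set annotated to Hbb-bt, Hbb-bs, Hbb-b2 and Hbb-b1 together read 26353, 16000.2 and 22159 in the 3 null samples and 31926, 21998 and 18357 in the 3 heterozygous ones. The lowest array was null 2 and the highest het 4, 2.00 times apart. Mean log2 levels (± SD, n = 3 each) were 14.36 ± 0.37 (null) and 14.52 ± 0.41 (heterozygous). The difference was −0.15 (95% interval −0.89 to 0.58, adjusted p = 0.969 over all probe sets tested, limma). The brighter probe set of Hbb-b2 alone read 11780, 5099 and 5944 in null and 11688, 8432 and 8203 in heterozygous bladders (difference −0.39, adjusted p = 0.858 over all genes, limma). That difference was −0.76 without null 1, −0.15 without null 2, −0.23 without het 4 and −0.09 with both Hbb-b2 probe sets averaged. Over the 7 probe sets of adult alpha and beta globin the differences ran from −0.39 to 0.22, 0 were called (0.206% of 31526 probe sets were), and the lowest unadjusted p was 0.315. Their 95% intervals together spanned −1.24 to 1.25. These 7 share targets and are not independent readings.

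The embryonic globin genes Hba-x and Hbb-bh1 were at or near the bottom of the scale. Hba-x, the zeta chain, read 5.13, 18.0 and 23.0 in the 3 null samples and 24.2, 8.61 and 59.2 in the 3 heterozygous ones, and het 6 alone was above the filter level. Hbb-bh1, the beta-h1 chain, read 16.9, 2.06 and 10.2 in null and 22.1, 45.9 and 2.58 in heterozygous bladders on its brightest probe set, of 3, where het 5 alone was above that level. The log2 differences of −0.47 and −0.50 are between groups that overlap (exact permutation p = 0.4 for each, two-sided, where 3 against 3 arrays cannot give less than 0.1). Single arrays carried both: Hba-x differed by −0.05 without het 6, and Hbb-bh1 by −0.09 without het 5.

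Hbb-y, the epsilon-y chain, stood above the filter through the brightest of its probe sets. Its signals were 50.1, 53.6 and 53.5 in the 3 null samples and 131, 34.8 and 58.4 in the 3 heterozygous ones. The null arrays lay close together, inside the wide range of the heterozygous arrays, with het 4 the highest. Mean log2 levels (± SD, n = 3 each) were 6.09 ± 0.04 (null) and 6.36 ± 0.77 (heterozygous). The difference was −0.26 (SE 0.37, adjusted p = 0.922, limma), and without het 4 the difference was 0.15.

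The 3 probe sets of Hbb-y did not read alike, and with all of them averaged the difference was −0.65. The second read 52.8, 31.4 and 61.3 in null and 215, 7.95 and 33.4 in heterozygous bladders, a difference of −0.04 with het 4 again the highest array. The dimmest read 2.13, 1.36 and 0.810 in null and 64.2, 46.6 and 17.0 in heterozygous bladders. All 3 null arrays lay below all 3 heterozygous arrays here, and 2 of the 6 arrays were above the filter level. It was the 1 probe set of 13 for these genes (7.69%) whose groups did not overlap, beside 11.5% of all 45037 probe sets, and it was singled out after its values were seen. On the log2 scale the level was 4.12 ± 0.05 against 5.78 ± 0.66 (SD, n = 3 each, difference −1.66, exact permutation p = 0.1, the smallest possible). The adjusted p was 0.334 in limma's fit over all probe sets without a filter (0.122% called). The size depended on the offset: it was −4.01 with an offset of 1 and −0.68 with 64. Both other Hbb-y probe sets carry the x in their Affymetrix names that marks probes able to match other transcripts. So do the brightest probe sets of Slc4a1 and Hbb-bh1 and the brightest one shared by Hba-a1 and Hba-a2. Which of the 3 Hbb-y probe sets follows that gene was not tested.

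**Figure D2:**
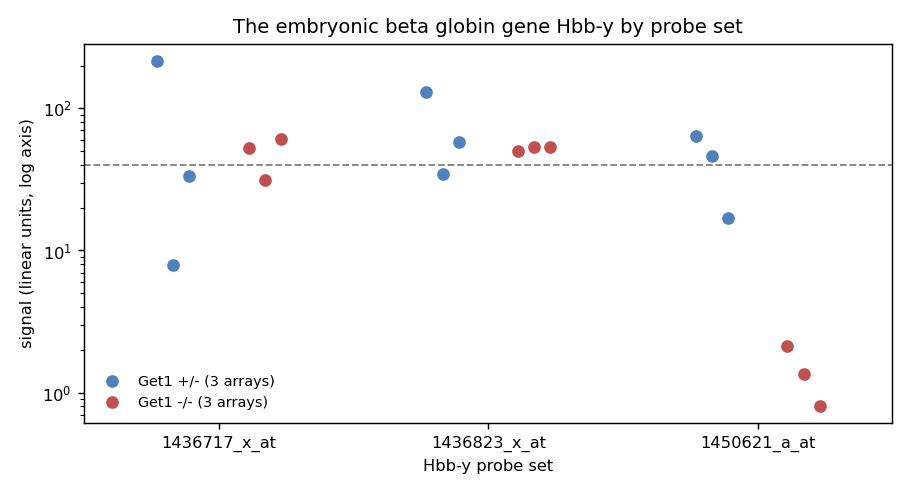
Signal of the 3 probe sets of Hbb-y on the 6 arrays, on a log axis, with blue points for Get1 +/- and red points for Get1 -/-. The dashed line is the filter level of 39.7. Groups overlap for the left and middle probe sets, while for the right one the null arrays read 2.13 or less and the heterozygous arrays 17.0 or more.

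Alas2, the erythroid form of the enzyme that starts haem synthesis, was above the filter level on all 6 arrays. It read 245, 107 and 235 in the 3 null samples and 225, 178 and 170.3 in the 3 heterozygous ones. Null 2 was the lowest array, the other 5 lay between 170.3 and 245, and the groups overlapped. Mean log2 levels (± SD, n = 3 each) were 7.65 ± 0.61 (null) and 7.68 ± 0.20 (heterozygous). The difference was −0.04 (95% interval −0.79 to 0.72, adjusted p = 0.994, limma). The interval thus allows a fall of up to 1.73-fold and a rise of up to 1.65-fold. Without null 2 the difference was 0.32, it was 0.08 without het 4, and −0.23 without null 1.

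Slc4a1, the anion exchanger that also anchors the red cell skeleton, varied most among the tested members. Its brightest probe set read 365, 89.3 and 215 in the 3 null samples and 325, 230.4 and 99.1 in the 3 heterozygous ones, a 4.08-fold range of signal. Null 1 and het 4 were high, null 2 and het 6 were low, and the groups covered nearly the same range. Mean log2 levels (± SD, n = 3 each) were 7.72 ± 0.93 (null) and 7.73 ± 0.80 (heterozygous). The difference was −0.02 (95% interval −1.27 to 1.23, adjusted p = 0.998, limma). The spread within groups was larger than that of 96.7% of genes tested (residual SD 0.87 beside a median of 0.35). The sign of so small a difference moved with single arrays, from −0.46 to 0.48 when 1 was left out, and it was −0.51 with array weights. The second of its 3 probe sets read 224, 57.5 and 141 in null and 182, 82.9 and 36.9 in heterozygous bladders (difference 0.47, adjusted p = 0.927 over all probe sets tested, limma), and the third stayed at or below 39.7.

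Rhag, the Rh-associated glycoprotein, was near the bottom of the scale. It read 4.85, 47.2 and 1.92 in the 3 null samples and 1.43, 2.52 and 15.9 in the 3 heterozygous ones, and null 2 alone was above the filter level. The groups overlapped. Its log2 difference was 0.40 (exact permutation p = 0.6), and the direction rested on null 2: the difference was −0.17 without it, and 0.74 without null 3.

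Single arrays stood apart in these genes, within each genotype. The probe sets of adult globin (7), Slc4a1 (3, of which the dimmest was below the filter) and Alas2 (1) were highest on null 1 or het 4 and lowest on null 2 or het 6 in 11 of 11 cases, and in 10 of the 10 that passed the filter, beside 14.5% of all 31526 probe sets that passed. These arrays were picked out after the values were seen, and several of the 11 share a target. The embryonic globins, the probe set of Hba-a1 alone and Rhag were not among the 11. Both Hbb-y probe sets that passed the filter were highest on het 4 but lowest on het 5, and so did not follow the pattern. Over those 10 the signal on null 1 was 1.25 to 4.08 times that on null 2, with a median of 2.25, where the median over all probe sets that passed was 0.947. The signal on het 4 was 1.32 to 4.93 times that on het 6, with a median of 2.24 beside 1.00. Each genotype thus held 1 of the high and 1 of the low arrays. The mean deviation of the 7 adult globin probe sets was 0.46, −0.49 and −0.03 on null 1 to null 3 and 0.56, 0.03 and −0.53 on het 4 to het 6. For the 7 genes as listed it was −0.04, −0.20, −0.05, 0.43, −0.08 and −0.07 on the same arrays. Only het 4 stood out in the second set, in which 4 genes were near the lowest level.

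**Figure D3:**
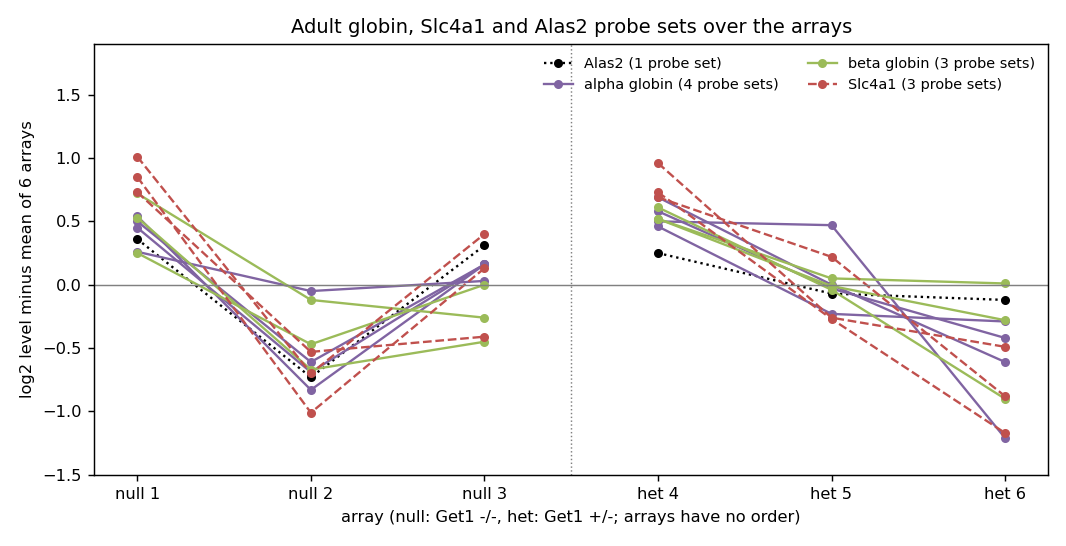
Level of 11 probe sets of adult globin, Slc4a1 and Alas2 on each array, as the log2 level minus the probe set's mean over the 6 arrays. Lines join the readings of 1 probe set within a genotype and imply no order of arrays. Null 1 and het 4 lie above 0 and null 2 below 0 for all 11, and 10 of the 11 lie below 0 on het 6, the other being Hbb-b2 at 0.01.

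**Figure D4:**
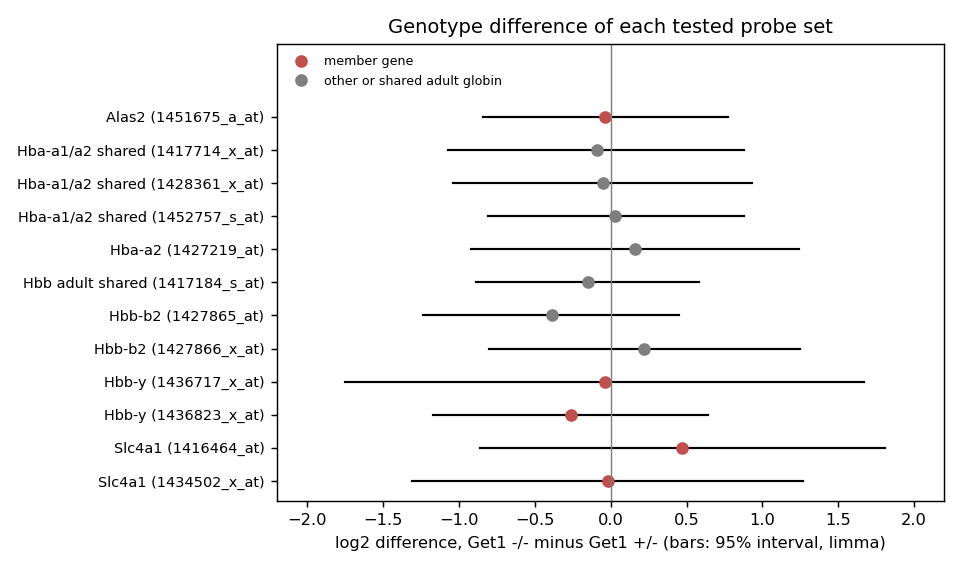
Log2 difference, null minus heterozygous, of the 12 erythroid probe sets that passed the filter, with 95% intervals from limma's fit over probe sets. Red points are member genes and grey points other or shared adult globins. Each interval includes 0, and differences run from −0.39 to 0.47.

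Markers of other tissues also moved with single arrays. Of 10 liver genes with a probe set 8 were highest on het 4 (Ttr and Apoa1 were highest on null arrays), the array with the highest Hbb-y. Of these 8, Ahsg, Ambp, Fgb and Fgg were below the filter. The share of all genes highest on het 4 is not given here. The liver list lay 1.68 above its mean on het 4 and between −0.91 and 0.07 on the other arrays. Alb, serum albumin, read 995 on het 4, 124 on het 5 and 43.9 on het 6, and 24.0, 1.91 and 74.0 on the null arrays (difference −2.35, adjusted p = 0.624, limma). The summed signal of the liver list ran from 1186 to 6448 in null and from 1034 to 6480 in heterozygous bladders. Ttr weighed heavily in these sums, at 762, 5344 and 4824 on null 1 to null 3. On het 4 to het 6 Ttr read 3076, 593 and 750.4. The part of liver RNA in the globin levels was not tested. Of 22 leukocyte and macrophage genes 11 were highest on het 6, where adult globins were low. Of the rest, 5 were highest on null 1, 2 each on null 2 and null 3, and 1 each on het 4 and het 5. The share of all genes highest on het 6 is not given here. Csf1r, the macrophage growth factor receptor, read 7247 on het 6 and 1568 to 2448 on the other arrays. The macrophage gene Mrc1 was lowest on het 6, at 2071 beside 2585 to 3690 on the others.

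Other genes of red cells were taken from 5 lists of globins, haem synthesis and iron uptake, regulators, membrane and skeleton, and enzymes and maturation. Of 82 genes 67 had a probe set and 51 were tested. Of these 1 rose and 0 fell, where 0.448% of all genes tested rose and 0.0628% fell. Of the 51, 27 had a difference above 0 and 24 below 0, with a median of 0.08 beside −0.03 for all genes tested. An unadjusted p under 0.05 (limma) was found for 8 of the 51, a larger share than the 7.93% of all genes. That excess was not tested.

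In haem synthesis and iron uptake 0 of 16 tested genes were called by limma, beside 0.510% of all genes tested. Of the 16, 1 had an unadjusted p under 0.05, and the median was 0.02. Tfrc, the transferrin receptor that brings iron into dividing cells, read 6189, 6522 and 6042 in null and 4685, 4319.8 and 4645 in heterozygous bladders (difference 0.46, adjusted p = 0.622, limma). The groups were apart, and the size was a 1.37-fold difference. Urod, a later enzyme of the pathway, was apart in the other direction, at 3022, 3275 and 3486 against 3870.0, 4860.4 and 4922 (difference −0.47, adjusted p = 0.633, limma). These were the 2 of 16 tested genes with groups apart, beside 13.4% of all genes tested. The iron transporter gene Slc11a2 and the haem synthesis gene Alad had differences of −0.77 and 0.57, with groups that overlapped.

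Of 17 erythroid regulators 12 were tested and 0 were called by limma, beside 0.510% of all genes tested. Of the 12, 0 had an unadjusted p under 0.05, and the median was 0.01. Gata1, Klf1, Nfe2, Gfi1b and Epor, the receptor of erythropoietin, were the 5 below the filter. The 4 with the smallest p were Ldb1 (0.47), Bcl11a (−0.42), which represses embryonic globins in adult cells, Sox6 (0.64) and Jak2 (0.30), with adjusted p from 0.734 to 0.795 (limma). Many genes of this list are also used outside the red cell lineage.

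Among genes of the red cell membrane and skeleton 0 of 10 tested were called by limma, beside 0.510% of all genes tested. Of the 10, 3 had an unadjusted p under 0.05, and the median was 0.07. Slc14a1, a urea transporter of red cells and urothelium, read 387, 608 and 590.4 in null and 987, 1262 and 1184 in heterozygous bladders, with the groups apart (difference −1.11, adjusted p = 0.213, limma). On the same null arrays the uroplakin gene Upk2, a marker of urothelium, fell (difference −3.03, adjusted p = 0.00223, limma), and Upk1a differed by −2.36 with groups apart (adjusted p = 0.199, limma). Over the 12 urothelial genes 1 was called, beside 0.510% of all genes tested. Groups were apart for 5 of the 12, a larger share than the 13.4% of all genes tested. Of the 12 differences 6 were above 0 and 6 below 0. Their summed signal was 40826 to 49212 in null and 40754 to 55157 in heterozygous bladders. The part of urothelium in Slc14a1 was not tested. Aqp1, a water channel of red cells and vessels, read 3315, 2124 and 2906 in null and 1561, 1357 and 1376 in heterozygous bladders, apart in the other direction (difference 0.93, adjusted p = 0.291, limma). The skeleton gene Add2 (0.59) and the glycophorin gene Gypc (−0.39) were apart too (adjusted p = 0.487 and 0.734, limma). Slc14a1, Aqp1, Add2 and Gypc were the 4 of 10 tested genes with groups apart, beside 13.4% of all genes tested. None of these 4 was both highest on null 1 or het 4 and lowest on null 2 or het 6, as 14.5% of probe sets that passed the filter were. Genes with groups apart are limited in which arrays can be highest and lowest, so this says nothing on red cells. The part of red cells in these 4 was not tested.

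Of 11 tested genes of red cell enzymes and maturation 1 rose, where 0.448% of all genes tested did. This was Car2, a carbonic anhydrase of red cells and many epithelia. It read 5445, 4042 and 5725 in null and 868, 785 and 378 in heterozygous bladders (difference 2.94, SE 0.34, adjusted p = 0.00852, limma), and missed the threshold without null 3 (adjusted p = 0.0521). The groups were apart. On the same null arrays the summed signal of 13 intestinal genes was 23887 to 38687, against 385 to 770.4 on the heterozygous arrays. Lgals4 and Hnf4a, the intestinal genes above the filter level on all 6 arrays, rose by 4.47 and 4.56 (adjusted p = 0.00223 and 8.7e-04, limma). The part of red cells or of intestinal RNA in Car2 was not tested. Pklr, the pyruvate kinase of red cells and liver, read 184, 304 and 341 against 5.06, 75.1 and 71.3 (difference 2.36, adjusted p = 0.252, limma). That size leaned on het 4, which was below the filter level: the difference was 1.67 without that array, 1.61 with an offset of 64 and 0.91 with all Pklr probe sets averaged. Fam210b and Blvrb had differences of −0.54 and −0.63 (adjusted p = 0.558 and 0.568, limma). Groups were apart for 5 of the 11 (Car2, Pklr, Fam210b, Blvrb and Prdx2), beside 13.4% of all genes tested.

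In haemoglobin scavenging and iron recycling 1 of 6 tested genes rose, where 0.448% of all genes tested did. Slc40a1 encodes ferroportin, the iron exporter of macrophages and of the absorbing cells of the gut. Its signals were 2046, 2604 and 2367 in null and 949, 917 and 812 in heterozygous bladders, with the groups well apart. The level was 11.19 ± 0.17 against 9.82 ± 0.12 (SD, n = 3 each, a 2.59-fold difference, log2 1.37, SE 0.21, adjusted p = 0.0407, limma). Leaving out any 1 of the 6 arrays lost the call, with adjusted p from 0.0826 (without null 1) to 0.214 (without null 2), while the difference stayed between 1.29 and 1.46. Hmox1, which breaks down haem, read 313, 423 and 374 in null and 298, 210.1 and 167 in heterozygous bladders (difference 0.70, adjusted p = 0.553, limma). Slc48a1 and Blvra had differences of −0.24 and 0.20. Groups were apart for Slc40a1 and Hmox1, 2 of the 6 tested, beside 13.4% of all genes tested. The intestinal list was higher on the same arrays, as given for Car2, and its part in Slc40a1 was not tested.

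**Figure D5:**
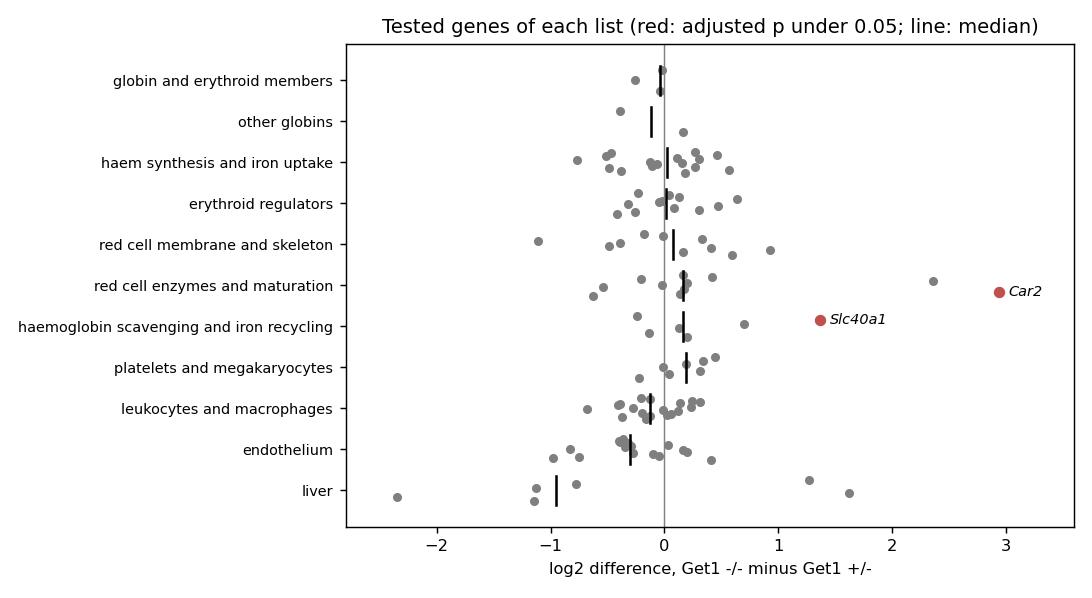
Log2 differences, null minus heterozygous, of every tested gene in the globin and erythroid set and in 10 other lists, with a black line at each list's median. Red points are genes with an adjusted p under 0.05, which are Car2 and Slc40a1, and all others are grey.

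Other cells of blood and vessels held no called gene, where 0.510% of all genes tested were called. At that share, 0 calls in lists this short say little about these cells. Of 7 tested platelet and megakaryocyte genes 0 were called by limma, with 0 at an unadjusted p under 0.05 (median 0.19), and the largest difference was that of the platelet tubulin Tubb1 at 0.44 (adjusted p = 0.779, limma). Of 18 tested leukocyte and macrophage genes 0 were called by limma, with 0 at an unadjusted p under 0.05 (median −0.13). Of 16 endothelial genes 0 were called and 3 had an unadjusted p under 0.05 (limma), 12 had a difference below 0 and the median was −0.30. Cldn5, Egfl7 and Pecam1, a claudin, a secreted factor and an adhesion molecule of vessels, had differences of −0.98, −0.75 and −0.83 (adjusted p = 0.495, 0.510 and 0.590, limma). Groups were apart for Cldn5 and Egfl7 and overlapped for Pecam1. Cdh5, the cadherin of vessels, went the other way with groups apart (difference 0.41, adjusted p = 0.722, limma). In this list 3 of the 16 had groups apart, beside 13.4% of all genes tested. The summed endothelial signal was 7291 to 8360 in null and 8246 to 10893 in heterozygous bladders.

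The genes whose levels over the 6 arrays were most like the mean of the 7 listed genes were Polr3k, Haspin, Macroh2a2, Ccdc112, Nfkb2, Icmt, Mras, Runx1t1, Mideas and Prpf3. Their root-mean-square distance from that mean profile was 0.05 to 0.09 on the log2 scale, among 12413 genes with enough spread to compare. All 10 were highest on het 4, which follows from the choice, because the mean profile itself is highest there. None is in the lists of red cell genes used here. The SD of the mean profile over the 6 arrays was 0.22, so the profile compared is itself narrow.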

How the data were processed

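Total bladder RNA of 6 samples had been hybridised to Affymetrix arrays, 1 array each. The authors deposited a linear intensity for each probe set, and the submitters' processing notes name Affymetrix Expression Console 1.1 and PLIER 2.0 without role or order. The upper quartile of signal was 336 to 372 over the arrays. The labels' protocol describes sense-strand DNA targets, whereas probe sets named as here are usually hybridised with antisense RNA; this could not be settled. For normalization and background, a method was not given in the sources used here.

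Of 45101 probe sets 64 were controls, 34945 had 1 symbol in the platform annotation, 932 several and 9160 were unnamed. Symbols were checked through gene identifiers against GRCm38.p6 (0 altered). Values were taken as log2(value + 16), and the 30% of genes with the lowest mean (under 5.80) were left out. The test between genotypes was that of limma (version 3.58.1, under R 4.3.3, two-sided, with lmFit and eBayes, Benjamini-Hochberg over all genes), with a threshold of 0.05. Probe sets with several symbols were tested in a fit over probe sets, added after the data were seen. The fit was tested on simulated data. The number of arrays limits the precision.

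Genes named are the listed members, called genes and up to 4 genes with the smallest p per list, and the 10 genes of most similar profile (SD at least 0.5 times that of the members). Unplaced gene models were not named. Names outside this rule complete a count or were chosen after values were seen. Members and lists were chosen with earlier results of these data known.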

Additional observations from a re-analysis of the deposited data

How the results depend on the processing

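Under 14 alternative settings and 1 more added after seeing the data, 0 of the erythroid members were called wherever they were tested (lowest adjusted p 0.753, limma). Hbb-y, Alas2 and Slc4a1 were tested in the 14, while Hba-a1, Hba-x, Hbb-bh1 and Rhag were tested only without the filter, and Hba-a1 also in the added one. The alternatives were offsets of 1 and 64, no filter, the mean of all probe sets, quantile normalization, centred arrays, an intensity trend, array weights and each array left out. The added one read Hba-a1 by its brightest probe set shared with Hba-a2, which gave a difference of −0.05. Sign changed in 9 member values, of which 8 were of tested genes and the other was Rhag, at −0.17 without null 2. Slc4a1 was 0.10 with probe sets averaged, 0.01 with centred arrays, −0.51 with array weights, and from −0.46 to 0.48 with 1 array left out (above 0 without null 2, het 4 or het 5, the last at 0.09). Alas2 ranged from −0.23 to 0.32 and Hbb-y from −0.61 to 0.15 in those fits, and Hbb-y was −0.65 with probe sets averaged. The difference of Hba-a2 was −0.25 with array weights and ranged from −0.40 to 0.45 with 1 array left out, and that of Slc48a1 from −0.42 to 0.01. The median of the 7 members ranged from −0.34 to 0.08. Their mean deviation on het 4 was 0.66 with an offset of 1 against 0.43.

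Slc40a1 was not called, which left 0 called genes for scavenging and iron recycling, with an offset of 1, without a filter, with probe sets averaged (adjusted p = 0.0693, 0.0927 and 0.0941, limma) and in all fits with 1 array left out (0 to 0). With 1 array left out the called genes of red cell enzymes ranged from 0 to 1 and those of urothelium from 1 to 2. Over all genes 65 were called, and 40 with an offset of 1. In each case the cause was not tested. No paired analysis was possible because the replicate numbers are 1 to 3 in null and 4 to 6 in heterozygous arrays, with none shared.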
